A study of Homo sapiens with 8 samples.

Results

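The clustered protocadherins are cell-surface cadherins encoded by neighbouring alpha, beta and gamma gene clusters on human chromosome 5. The members were the rows whose symbols carry the PCDHA, PCDHAC, PCDHB, PCDHGA, PCDHGB or PCDHGC name with a number, which gave 53 genes of the 20344 symbols in either deposited table: 15 alpha, 16 beta and 22 gamma. All 53 were listed in both tables, and 52 had enough reads to be tested in each comparison. The exception was PCDHB1, which had 8 to 12 reads per library in the crowding experiment and 2 to 9 in the knockdown experiment.

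RNA came from H9, an established human embryonic stem cell line kept undifferentiated on Matrigel in mTeSR1 or TeSR-E8 medium. In the crowding experiment, 2 libraries labelled small were compared with 2 libraries labelled crowded, in which high-density growth was forced by limiting the adhesive area. The labels do not say what small stands for, and it was read here as the low-density culture. In the knockdown experiment, 2 libraries labelled Ctrl were compared with 2 libraries labelled ETV4 KD, from cells given a hairpin against ETV4, an ETS-family transcription factor. Nothing in the labels says that the libraries of a group came from separate cultures, so the p-values measure the spread between these libraries, and the hairpin used is not named in the sources used here.

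Each alpha or gamma gene joins its own large variable exon, which encodes the extracellular cadherin repeats, the membrane span and a short cytoplasmic stretch, to constant exons shared by the whole cluster. Beta genes have no constant exons, so their proteins lack the common cytoplasmic tail. In neurons each cell switches on a small subset of the variable promoters, and like subsets on touching membranes bind each other, which lets a neuron recognise its own branches. The choice depends on the zinc-finger protein CTCF and on cohesin, which loop a promoter to distant enhancers, and on DNA methylation, which silences the other promoters. The C-type genes at the ends of the alpha and gamma clusters, PCDHAC1, PCDHAC2, PCDHGC3, PCDHGC4 and PCDHGC5, are instead read in most neurons of a given type.

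On GRCh37, the build to which the reads were mapped, the lifted GENCODE annotation places all 53 members on the plus strand. The alpha cluster spans chr5:140165721-140391932, the beta cluster chr5:140430959-140628933 and the gamma cluster chr5:140710081-140892544. The constant exons of the alpha cluster are at chr5:140358534-140358592 and chr5:140362060-140362148, each in transcripts of 15 members, and chr5:140389212-140391932, in transcripts of 13 members. This count needs the same start and end, and PCDHA6 and PCDHA7 are annotated to end at base 140391929. Those of the gamma cluster are at chr5:140874374-140874432, chr5:140884960-140885048 and chr5:140890514-140892542, each in transcripts of 22 members. In the longest annotated transcript of a gene, windows of 100 bases, the length of 1 read, were looked up word for word in the other members. The median share of windows found in another member was 52.4% for alpha genes, 44.8% for gamma genes and 5.48% for beta genes. A read from the constant exons of alpha or gamma therefore cannot be given to 1 member by its sequence alone.

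RefSeq promoters, the 250 bases before and 50 after a gene's start on GRCh38.p14, were at hand for 47 of the 53 members. PCDHA3, PCDHA13, PCDHB6, PCDHB11, PCDHGA12 and PCDHGC5 had no entry. To show what the promoters of a cluster share, the 12-base word held by the most promoters of each cluster was taken, on either strand. It was CATGATGTCGCT in 8 of 13 alpha promoters, GGTGGCGCTGCA in 10 of 14 beta promoters and CTCTGGGCGCCG in 5 of 20 gamma promoters. Of all 35116 promoters in the table, 0.0228%, 0.0427% and 0.0484% held these words. The alpha word was in no promoter outside the members, the beta word was in those of 5 other genes and the gamma word in those of 11 other genes. All the gamma members with the word were of the PCDHGB type. PCDHB14, PCDHGA2, PCDHGA5, PCDHGA6, PCDHGA11, PCDHGB2 and PCDHGB3 also differed in a comparison below, but their promoters lack the word of their cluster. A link between the word and the changes was not tested. The stretches shown are from members that differed in a comparison below and whose promoter holds the word. They let the likeness within a cluster be seen, with the shared word in capitals and 10 bases on either side.
PCDHA1: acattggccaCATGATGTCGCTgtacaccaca
PCDHA7: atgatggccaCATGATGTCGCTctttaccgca
PCDHA12: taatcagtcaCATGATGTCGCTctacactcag
PCDHB2: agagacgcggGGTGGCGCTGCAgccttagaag
PCDHB10: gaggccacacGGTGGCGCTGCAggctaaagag
PCDHB15: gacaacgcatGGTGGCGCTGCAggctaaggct
PCDHGB1: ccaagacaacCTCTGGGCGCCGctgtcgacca
PCDHGB5: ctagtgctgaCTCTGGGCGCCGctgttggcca

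The first base of the word lay 46 bases before the gene start in PCDHA1, 89 in PCDHA7, 56 in PCDHA12, 60 in PCDHB2, 43 in PCDHB10, 70 in PCDHB15, 68 in PCDHGB1 and 78 in PCDHGB5. The alpha and beta words both contain CGCT, the 4-base core described for the conserved promoter element of this locus. CGCT, on either strand, was in 12 of 13 alpha, 14 of 14 beta and 20 of 20 gamma promoters, against 70.0% of all promoters. CCGGAA, a word of the kind that ETS factors bind, was in 1 alpha, 2 beta and 1 gamma promoter, namely those of PCDHA5, PCDHB1, PCDHB14 and PCDHGB2, against 17.2% of all promoters. The promoters of the 4 C-type genes at hand had a GC content of 59.0% to 66.0% and 15 to 27 CpG dinucleotides in 300 bases. Those of the 43 other members had a GC content of 32.3% to 51.3% and 2 to 16 CpG dinucleotides, against a median GC content of 58.7% over all promoters.

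The 250 bases upstream of 3 genes follow, with the shared beta word in capitals. PCDHB2 and PCDHB15 are shown because they carry the same word and moved in opposite directions after ETV4 knockdown, and PCDHAC2 because it was the leading alpha gene in that experiment and is of the CpG-richer C-type. On GRCh37, the stretch of PCDHAC2 is chr5:140345811-140346060 and that of PCDHB15 chr5:140624713-140624962, both on the plus strand. The RefSeq sequence of PCDHB2 had no exact match on GRCh37, so it has no position here.
PCDHAC2: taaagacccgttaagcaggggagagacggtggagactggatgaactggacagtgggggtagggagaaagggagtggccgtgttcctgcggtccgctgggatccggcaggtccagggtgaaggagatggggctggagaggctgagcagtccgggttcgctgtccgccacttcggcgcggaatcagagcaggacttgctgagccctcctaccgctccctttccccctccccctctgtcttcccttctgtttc
PCDHB2: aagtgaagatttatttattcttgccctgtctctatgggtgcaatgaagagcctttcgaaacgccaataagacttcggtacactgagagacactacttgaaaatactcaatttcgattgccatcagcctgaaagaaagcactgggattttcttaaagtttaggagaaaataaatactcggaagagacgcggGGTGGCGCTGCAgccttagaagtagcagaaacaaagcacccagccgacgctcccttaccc
PCDHB15: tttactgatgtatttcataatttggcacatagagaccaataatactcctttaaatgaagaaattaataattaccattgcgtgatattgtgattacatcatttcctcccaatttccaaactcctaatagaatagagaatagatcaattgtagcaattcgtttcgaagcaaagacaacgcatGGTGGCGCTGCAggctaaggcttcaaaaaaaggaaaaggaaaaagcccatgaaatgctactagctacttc

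The counts on genes totalled 50359703 to 62410168 reads per library, and log2 CPM correlated at 0.991 to 0.994 across genes between the 2 libraries of a group. ETV4, the gene targeted, was at 90.8 and 95.1 FPKM in the Ctrl libraries and at 45.6 and 40.9 FPKM in the ETV4 KD libraries, a log2 fold change of -1.15 ± 0.07 (SE; edgeR adjusted p = 0.00016) in the direction the labels give. It was at 73.2 and 72.6 FPKM in small and at 54.2 and 53.9 FPKM in crowded (-0.49 ± 0.06, edgeR adjusted p = 9.4e-07). FPKM values, the deposited reads scaled to transcript length and to the mapped reads of the library, are used for levels, and log2 fold changes come from the read counts.

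The clustered protocadherins were expressed at low levels in these stem cells, and the 3 leading genes of a cluster held 41.7% to 68.2% of its summed FPKM. In the crowding experiment, 18 of 53 members had a mean above 1 FPKM and 24 were below 0.5 FPKM. In the knockdown experiment, 14 were above 1 FPKM and 30 below 0.5 FPKM. The range ran from 0.0516 FPKM (PCDHB1) to 7.55 FPKM (PCDHB5) over the 4 libraries of the crowding experiment, and from 0.0317 FPKM (PCDHB1) to 3.69 FPKM (PCDHB2) over those of the knockdown experiment.

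Among the beta genes, PCDHB5, PCDHB2 and PCDHB15 held 68.2% of the cluster's summed FPKM in the crowding experiment and, in another order, 66.8% in the knockdown experiment. PCDHB5 was at 7.76 and 8.35 FPKM in small and at 7.53 and 6.55 FPKM in crowded. It was at 3.40 and 3.20 FPKM in Ctrl and at 2.96 and 2.97 FPKM in ETV4 KD. The groups did not overlap in either experiment, with the crowded and the ETV4 KD libraries on the lower side. In the knockdown the log2 fold change was -0.15 ± 0.12 (edgeR adjusted p = 0.408), and PCDHB5 was called in neither experiment. In scaled read counts, 35.3% of all genes tested in crowding and 32.2% in the knockdown were apart downward in this way.

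Among the alpha genes, PCDHA11, PCDHAC2 and PCDHA10 led in the crowding experiment, with 47.9% of the summed FPKM, and PCDHAC2, PCDHA11 and PCDHA12 led in the knockdown experiment, with 51.9%. PCDHA11 was at 3.24 and 2.72 FPKM in small and at 2.05 and 3.06 FPKM in crowded, so the groups overlapped. PCDHA10 was at 1.84 and 1.87 FPKM in small and at 2.18 and 1.57 FPKM in crowded, with the crowded libraries on both sides of the small ones.

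Among the gamma genes, PCDHGC3, PCDHGA10 and PCDHGB4 led in the crowding experiment with 41.7% of the summed FPKM, and PCDHGC3, PCDHGB7 and PCDHGB4 in the knockdown experiment with 50.3%. PCDHGC3, a C-type gene read in most tissues that express the locus, was at 3.81 and 3.48 FPKM in small and at 4.13 and 3.14 FPKM in crowded. It was at 3.95 and 3.34 FPKM in Ctrl and at 3.43 and 2.83 FPKM in ETV4 KD. The groups overlapped in both experiments, with log2 fold changes of -0.05 ± 0.12 and -0.21 ± 0.14 (edgeR adjusted p = 0.775 and 0.324).

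**Figure D1:**
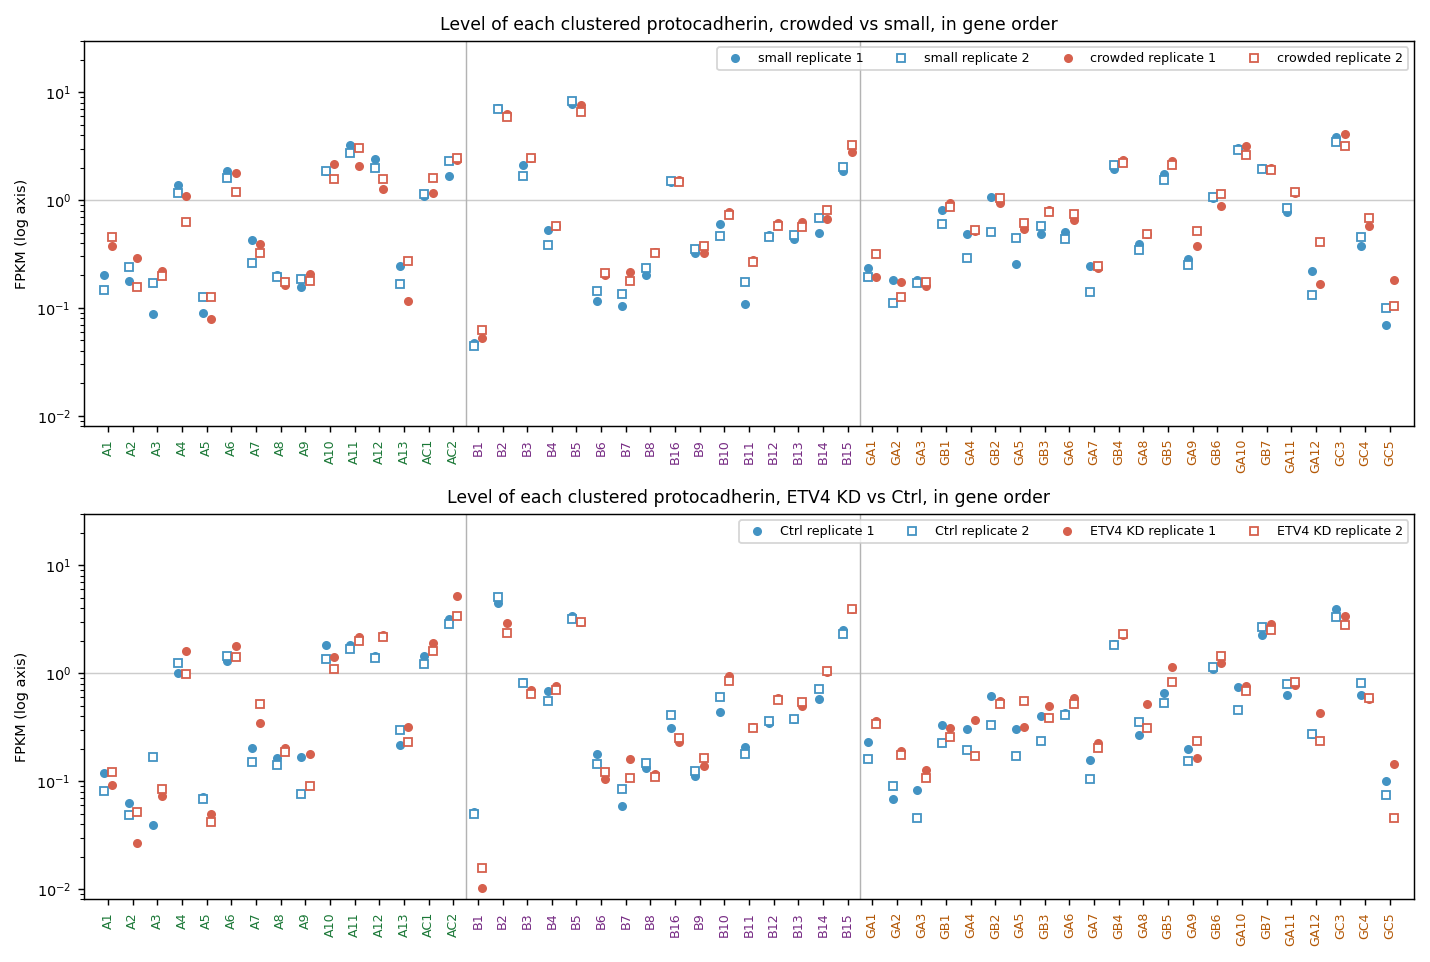
FPKM of each of the 53 members in each library (log axis), in the order of the genes along chromosome 5 with the PCDH of each name left out, for small (blue) and crowded (red) above and Ctrl (blue) and ETV4 KD (red) below; the horizontal line marks 1 FPKM. Most members sit below the line in all libraries, while PCDHB5 and PCDHB2 stand highest in the crowding experiment.

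The crowding comparison asks which genes differ between hESCs at low and high density. A gene was called when its edgeR quasi-likelihood p, adjusted by Benjamini-Hochberg over all 17672 genes tested, was below 0.05 and its absolute log2 fold change was over 0.5. Of the 52 members tested, 9 rose in crowded cells and none was called lower by edgeR with all libraries, which is 17.3% of the members against 10.7% of all genes tested called higher and 5.47% called lower. They were PCDHA1 and PCDHA3 of 15 alpha genes, PCDHB11 and PCDHB15 of 15 beta genes, and PCDHGA5, PCDHGA6, PCDHGA11, PCDHGB1 and PCDHGB3 of 22 gamma genes. At an unadjusted p below 0.05, 16 members passed (30.8%), against 47.7% of all genes tested. The median log2 fold change was -0.07 for alpha, 0.33 for beta and 0.36 for gamma genes, against 0.003 for all genes tested. Without small replicate 2 the median was 0.24 for alpha and 0.17 for gamma genes, and without crowded replicate 2 it was 0.05 for alpha and 0.20 for gamma genes, so the sign of the alpha median rested on single libraries.

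PCDHA1, the first gene of the alpha cluster, was at 0.200 and 0.147 FPKM in small and at 0.374 and 0.452 FPKM in crowded, from 32 and 29 reads and 68 and 94 reads. Both crowded libraries were above both small libraries, with a log2 fold change of 1.25 ± 0.31 (SE, n = 2 libraries a group; edgeR adjusted p = 0.00289). PCDHA3, an alpha gene near the same end of the cluster, had 13 and 30 reads in small and 35 and 65 in crowded. Its log2 fold change was 1.08 ± 0.40 (edgeR adjusted p = 0.0359; DESeq2 adjusted p = 0.132), and it was 0.68 without crowded replicate 2 and 1.64 without small replicate 2.

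PCDHB15, the last gene of the beta cluster, was the best measured of the members that rose. It was at 1.84 and 2.03 FPKM in small and at 2.79 and 3.24 FPKM in crowded, from 421 to 920 reads per library. The groups did not overlap, and the log2 fold change was 0.58 ± 0.11 (edgeR adjusted p = 0.000369). PCDHB11 rose from 27 and 50 reads, or 0.110 and 0.173 FPKM, to 72 and 80 reads, or 0.276 and 0.269 FPKM, a log2 fold change of 0.86 ± 0.30 (edgeR adjusted p = 0.0301; DESeq2 adjusted p = 0.108).

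The gamma genes that rose were all below 1 FPKM in small. PCDHGA5 was at 0.253 and 0.448 FPKM in small and at 0.541 and 0.607 FPKM in crowded (log2 fold change 0.86 ± 0.29, edgeR adjusted p = 0.0211; DESeq2 adjusted p = 0.0599). PCDHGA6 went from 0.510 and 0.439 FPKM to 0.655 and 0.749 FPKM (0.69 ± 0.21, edgeR adjusted p = 0.0130). PCDHGA11 went from 0.775 and 0.836 FPKM to 1.152 and 1.199 FPKM (0.54 ± 0.16, edgeR adjusted p = 0.0107). In each of these genes both crowded libraries were above both small libraries.

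PCDHGB3 was at 0.481 and 0.571 FPKM in small and at 0.818 and 0.773 FPKM in crowded (0.78 ± 0.23, edgeR adjusted p = 0.0117). PCDHGB1 was at 0.818 and 0.604 FPKM in small and at 0.946 and 0.863 FPKM in crowded, from 115 and 189 reads and 244 and 283 reads (0.67 ± 0.19, edgeR adjusted p = 0.00831). For PCDHGB1 the ratio of the mean FPKM was 0.35 on the log2 scale, smaller than the change in reads. Both belong to the PCDHGB subtype. PCDHGB5, of the same subtype, was at 1.76 and 1.52 FPKM in small and at 2.31 and 2.12 FPKM in crowded with a log2 fold change of 0.35 ± 0.12, below the threshold on size (edgeR adjusted p = 0.0241).

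PCDHB5 and PCDHB2, the most abundant members in small, were not called. PCDHB2 was at 7.11 and 7.03 FPKM in small and at 6.23 and 5.91 FPKM in crowded, and PCDHB5 was likewise lower in both crowded libraries. Their log2 fold changes of -0.28 ± 0.07 and -0.25 ± 0.08 had edgeR adjusted p = 0.00479 and 0.0170 and were below the threshold on size, as was PCDHA4 at -0.45 ± 0.16 (edgeR adjusted p = 0.0287). Among members with a mean of at least 1 FPKM, 6 of 18 had a positive log2 fold change, with a median of -0.06, and 1, PCDHB15, was called. Among the tested members under 1 FPKM, 28 of 34 had a positive log2 fold change, with a median of 0.45, and 8 were called. The same split by level was not made over all genes tested, so it cannot be read as particular to the members. The 19 gamma genes outside the top 3 summed to 11.4 and 10.1 FPKM in small and to 13.28 and 13.97 FPKM in crowded, while the top 3 gamma genes summed to 8.80 and 8.49 FPKM and to 9.65 and 7.97 FPKM.

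The C-type genes were not called. PCDHAC1 was at 1.08 and 1.14 FPKM in small and at 1.15 and 1.62 FPKM in crowded. PCDHAC2, which serotonergic neurons need to space their axons, was at 1.69 and 2.29 FPKM in small and at 2.34 and 2.44 FPKM in crowded. Their log2 fold changes were 0.29 ± 0.17 and 0.21 ± 0.12 (edgeR adjusted p = 0.205 and 0.180).

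PCDHGC4, needed for the survival of cortical interneurons, was at 0.373 and 0.456 FPKM in small and at 0.576 and 0.680 FPKM in crowded (0.40 ± 0.23, edgeR adjusted p = 0.183). PCDHGC5 had 11 and 31 reads in small and 45 and 20 in crowded, so its groups overlapped. PCDHA12 had the widest spread among the well-read members, with 739 and 455 reads in small and 322 and 592 in crowded (-0.58 ± 0.56, edgeR adjusted p = 0.527). In FPKM its groups did not overlap, at 2.3997 and 1.996 in small and 1.280 and 1.573 in crowded, and limma on log2(FPKM + 0.1) called it lower (-0.59, adjusted p = 0.0210). Its log2 fold change was -0.02 without small replicate 1 and -0.995 without small replicate 2, where edgeR called it lower (adjusted p = 5.5e-08).

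In CPM, counts scaled to the size of the library, the 2 crowded libraries lay above the 2 small libraries for 21 of the 52 members tested and below them for 7, against 35.4% and 35.3% of all genes tested. By cluster these were 3 and 2 of 15 alpha genes, 10 and 2 of 15 beta genes, and 8 and 3 of 22 gamma genes. The calls rested on few libraries and reads. The log2 fold change of PCDHGA5 was 0.53 without crowded replicate 2, and that of PCDHGB3 0.47 without crowded replicate 1. PCDHA1 alone kept its call with any library left out, 7 of the 9 were lost without small replicate 1, 5 without crowded replicate 2 and 1 without crowded replicate 1. The share of all called genes that lose their call in this way is not given here, so the losses cannot be read as particular to the members. DESeq2 called 6 members, all higher. limma on log2(FPKM + 0.5) called 1 of the members with a mean of at least 0.5 FPKM.

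**Figure D2:**
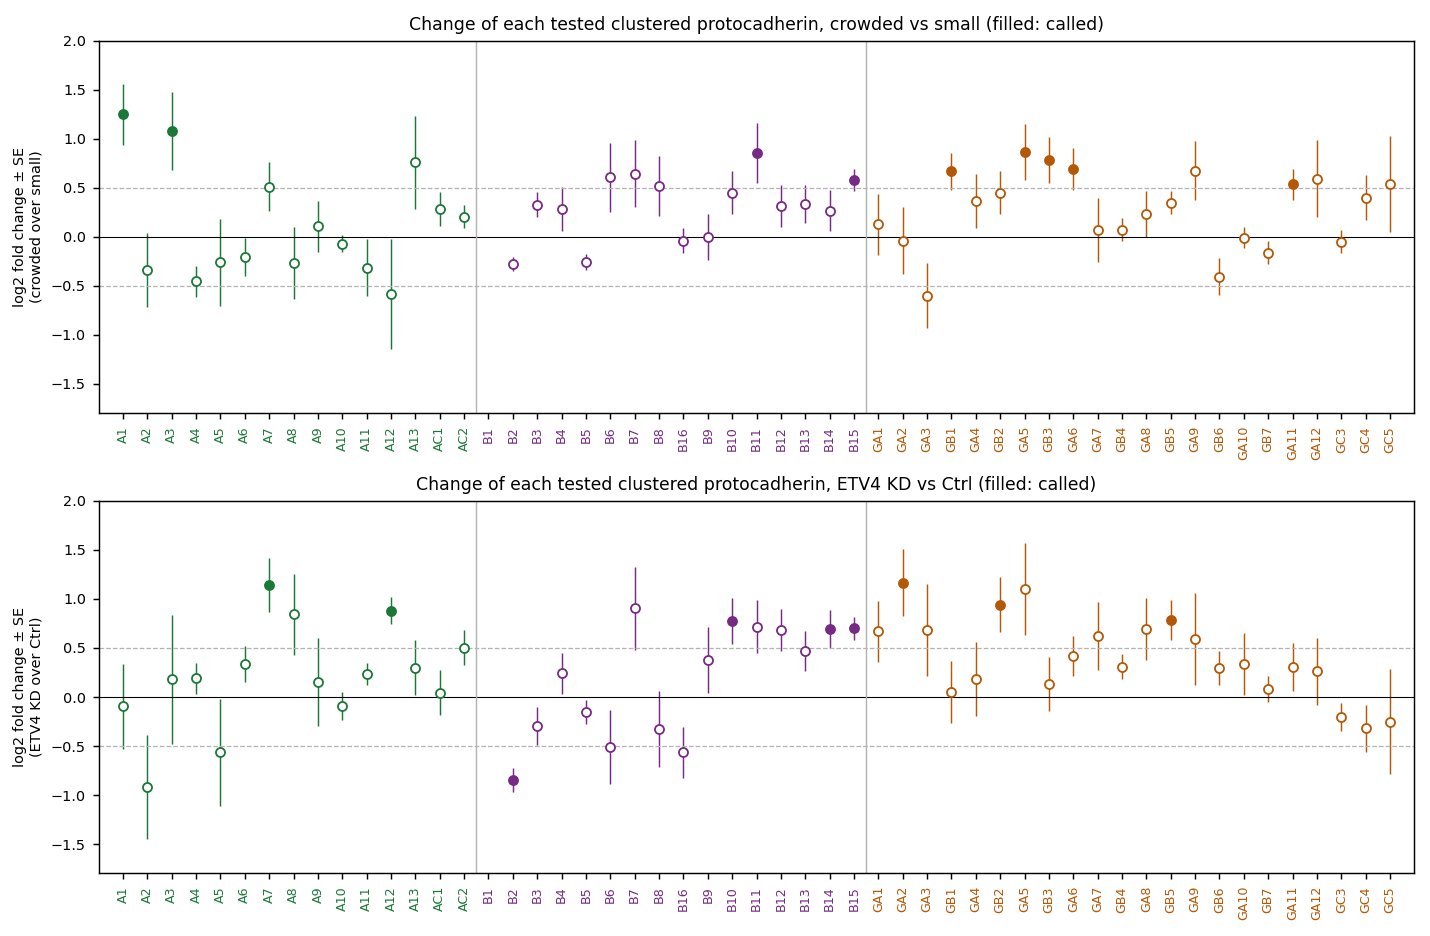
log2 fold change of each tested member with its standard error, from the edgeR fit of read counts, in gene order for the crowding comparison (above) and the knockdown comparison (below); filled points were called, and dashed lines mark the threshold of 0.5 either way. All 9 called members are above 0 in the crowding comparison, and PCDHB2 is the single called member below 0 after ETV4 knockdown.

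The knockdown comparison asks which genes differ when ETV4 is reduced. Of the 52 members tested, 8 rose and 1 fell, which is 15.4% and 1.92% of the members against 5.88% of all 17879 genes tested called higher and 7.10% called lower. The genes that rose were PCDHA7 and PCDHA12 of 15 alpha genes, PCDHB10, PCDHB14 and PCDHB15 of 15 beta genes, and PCDHGA2, PCDHGB2 and PCDHGB5 of 22 gamma genes. The gene that fell was PCDHB2. At an unadjusted p below 0.05, 14 members passed (26.9%), against 36.6% of all genes tested. The median log2 fold change was 0.19 for alpha, 0.38 for beta and 0.32 for gamma genes, against -0.001 for all genes tested.

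PCDHB2 was the most abundant beta gene in Ctrl. It was at 4.44 and 5.06 FPKM in Ctrl and at 2.89 and 2.37 FPKM in ETV4 KD, from 1138 and 1205 reads and 726 and 571 reads. Both knockdown libraries were below both control libraries, and the gene fell by 0.85 ± 0.13 on the log2 scale (edgeR adjusted p = 0.00405). Its share of the beta cluster's summed FPKM went from 31.9% to 17.5%.

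PCDHB15 moved the other way. It was at 2.52 and 2.31 FPKM in Ctrl and at 3.94 and 3.90 FPKM in ETV4 KD, and the groups did not overlap (log2 fold change 0.70 ± 0.12, edgeR adjusted p = 0.00635). Its share of the beta FPKM went from 16.2% to 26.1%. PCDHB15 was the only member called in both comparisons, in which 17 members were called in at least 1 and 36 in neither, among them the untested PCDHB1. In each comparison 17.3% of the members tested were called in either direction. Over all genes tested this was 16.1% in crowding and 13.0% in the knockdown. How many of all genes were called in both was not counted, so the overlap has no background here. The 2 comparisons use different libraries, and whether the changes of a member differ between them was not tested.

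PCDHB10 was at 0.435 and 0.609 FPKM in Ctrl and at 0.938 and 0.841 FPKM in ETV4 KD (0.78 ± 0.23, edgeR adjusted p = 0.0454). PCDHB14 was at 0.580 and 0.716 FPKM in Ctrl and at 1.03 and 1.05 FPKM in ETV4 KD (0.69 ± 0.19, edgeR adjusted p = 0.0359). Both are beta genes from the far end of the cluster. The signs of the beta values were grouped along the chromosome, which was noticed after the values were seen and was not tested. All 7 genes from PCDHB9 to PCDHB15 had positive log2 fold changes, from 0.38 to 0.78, with both knockdown libraries above both controls. Of the 8 tested genes before PCDHB9, 6 had negative values, down to -0.85, with both knockdown libraries below both controls, and PCDHB4 and PCDHB7 had positive ones. Of these, 3 of the 7 and 1 of the 6 were called, against 5.88% of all genes tested called higher and 7.10% called lower. Over all genes tested, both knockdown libraries were above both controls for 32.6% and below them for 32.2%. In the crowding comparison the corresponding numbers with a positive value were 6 of 7 and 5 of 8. The beta sum did not move with these changes, at 14.7 and 15.2 FPKM in Ctrl and 15.4 and 14.7 FPKM in ETV4 KD.

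PCDHA12 had the best measured rise among the alpha genes. It was at 1.46 and 1.39 FPKM in Ctrl and at 2.26 and 2.17 FPKM in ETV4 KD, from 378 and 370 reads and 748 and 622 reads (0.88 ± 0.13, edgeR adjusted p = 0.00424). PCDHA7 was at 0.202 and 0.152 FPKM in Ctrl and at 0.347 and 0.517 FPKM in ETV4 KD (1.14 ± 0.27, edgeR adjusted p = 0.0219). For both genes the groups were apart. PCDHAC2 was at 3.22 and 2.86 FPKM in Ctrl and at 5.24 and 3.36 FPKM in ETV4 KD, with the first knockdown library well above the second (0.50 ± 0.18, edgeR adjusted p = 0.0757; DESeq2 adjusted p = 0.0193). The value was 0.18 without ETV4 KD replicate 1 and 0.77 without ETV4 KD replicate 2, and it was called under 3 of 13 alternatives.

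PCDHGA2 had 21 and 25 reads in Ctrl and 55 and 48 in ETV4 KD, or 0.0685 and 0.0901 FPKM and 0.190 and 0.174 FPKM (1.17 ± 0.34, edgeR adjusted p = 0.0429; DESeq2 adjusted p = 0.105). PCDHGB5 was at 0.657 and 0.534 FPKM in Ctrl and at 1.14 and 0.821 FPKM in ETV4 KD (0.79 ± 0.20, edgeR adjusted p = 0.0274). PCDHGB2 had 94 and 53 reads in Ctrl and 139 in each ETV4 KD library (0.94 ± 0.28, edgeR adjusted p = 0.0466), and its log2 fold change was 0.63 without Ctrl replicate 2. Its FPKM values, 0.610 and 0.332 in Ctrl and 0.556 and 0.524 in ETV4 KD, overlapped, and the ratio of their means was 0.20 on the log2 scale. PCDHGB2 was the 1 called member of this comparison whose groups overlapped in FPKM.

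The other C-type genes were not called after ETV4 knockdown. PCDHAC1 was at 1.45 and 1.22 FPKM in Ctrl and at 1.92 and 1.60 FPKM in ETV4 KD, yet its reads overlapped, at 384 and 324 and at 465 and 264. PCDHGC4 was at 0.625 and 0.809 FPKM in Ctrl and at 0.579 and 0.588 FPKM in ETV4 KD (-0.32 ± 0.24, edgeR adjusted p = 0.364). PCDHGC5 had 17 and 21 reads in Ctrl and 24 and 8 in ETV4 KD.

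Both knockdown libraries were above both controls in CPM for 25 of the 52 members tested and below them for 9, against 32.6% and 32.2% of all genes tested. By cluster these were 6 and 2 of 15 alpha genes, 9 and 6 of 15 beta genes, and 10 and 1 of 22 gamma genes. The calls of PCDHA12, PCDHB2 and PCDHB15 were kept with any library left out. Of the 9 calls, 4 were lost without Ctrl replicate 1, 5 without Ctrl replicate 2, 3 without ETV4 KD replicate 1 and 5 without ETV4 KD replicate 2, and PCDHGA2 lost its call in each of these. The matching share of all called genes is not given here, so these losses cannot be read as particular to the members. DESeq2 called 8 members higher and 1 lower. Among members with a mean of at least 0.5 FPKM, limma on log2(FPKM + 0.5) called 1 higher and 1 lower.

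Reads from the constant exons bear on the alpha sums. The tables hold a row of its own, PCDHACT, for the constant exons of the alpha cluster, which is no member. PCDHACT had 14 and 726 reads in small, 16 and 12 in crowded, 27 and 20 in Ctrl, and 16 and 1085 in ETV4 KD. A single library of small and a single library of ETV4 KD thus held nearly all its reads. Without small replicate 2 and ETV4 KD replicate 2, the row lies between 12 and 27 reads.

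The alpha members summed to 99.0 and 91.5 CPM in small and to 86.9 and 93.8 in crowded. With PCDHACT added, the sums were 99.3 and 104 in small and 87.2 and 94.0 in crowded, so the groups overlapped without it and did not overlap with it. In the knockdown experiment the alpha sums were 84.6 and 77.2 in Ctrl and 110 and 86.2 in ETV4 KD. With PCDHACT they were 85.1 and 77.5 in Ctrl and 111 and 107 in ETV4 KD, with the knockdown libraries closer together. The gamma sums were 92.4 and 88.8 CPM in small and 103.5 and 103.6 in crowded, and 72.5 and 69.2 in Ctrl and 80.6 and 77.3 in ETV4 KD, without overlap in either experiment. The beta sums, which no constant exon touches, were 103.2 and 106.2 in small and 108.9 and 106.5 in crowded, also without overlap. In the knockdown they were 64.28 and 65.42 in Ctrl and 64.22 and 62.97 in ETV4 KD. For single genes, 35.4% of all genes tested in crowding and 32.6% in the knockdown were apart upward in this way.

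**Figure D3:**
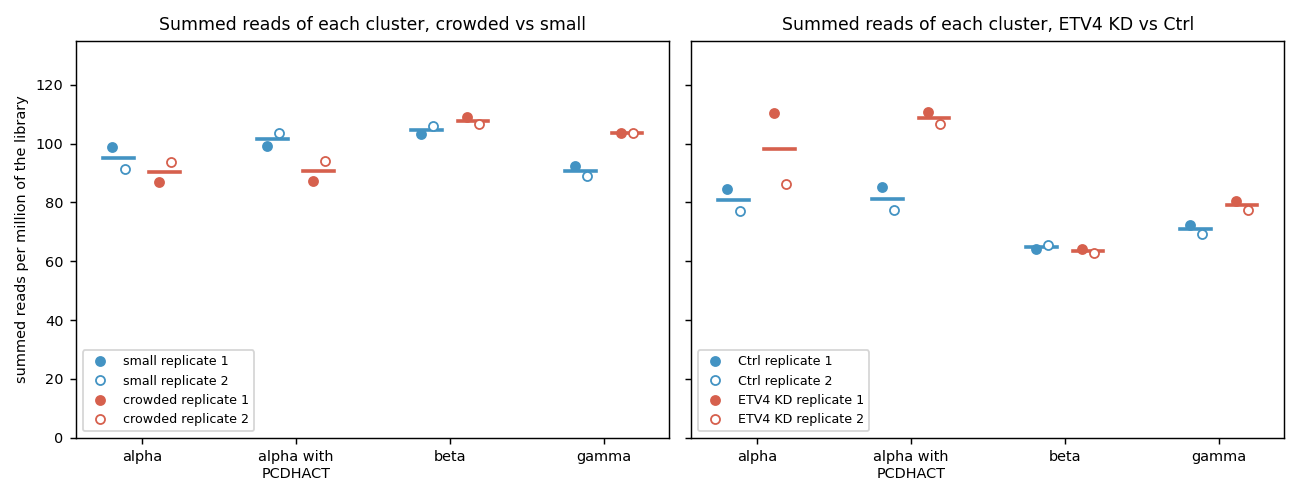
Summed CPM of the members of a cluster (axis from 0), in each library of the crowding experiment (left) and the knockdown experiment (right), with the alpha cluster shown without and with PCDHACT; bars mark the mean of 2 libraries. The gamma sums of crowded and of ETV4 KD lie above those of small and Ctrl, and the beta sums of crowded lie above those of small. Adding PCDHACT brings the 2 ETV4 KD libraries to 111 and 107.

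The deposited counts and FPKM need not move together when the transcripts of a gene to which reads are given differ between libraries. The number of reads per FPKM, which is fixed for a gene of constant length apart from depth, was compared after division by the library's median over all genes. Its highest value over its lowest in the 4 libraries had a median of 1.01 in the beta genes of either experiment, and no beta gene exceeded 1.2. It exceeded 1.2 in 9 of 15 alpha and 13 of 22 gamma genes in the crowding experiment, and in 11 of 15 and 11 of 22 in the knockdown experiment. The median distance between the log2 fold change from reads and the log2 ratio of mean FPKM was 0.19 for alpha, 0.07 for gamma and 0.005 for beta genes in the knockdown comparison, and 0.08, 0.12 and 0.06 in the crowding comparison. The groups were apart in FPKM as well for all 9 members called in the crowding comparison and for 8 of 9 in the knockdown comparison. FPKM and counts come from the same reads, so this is no separate support for the calls. The share of all genes apart in FPKM was not counted.

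**Figure D4:**
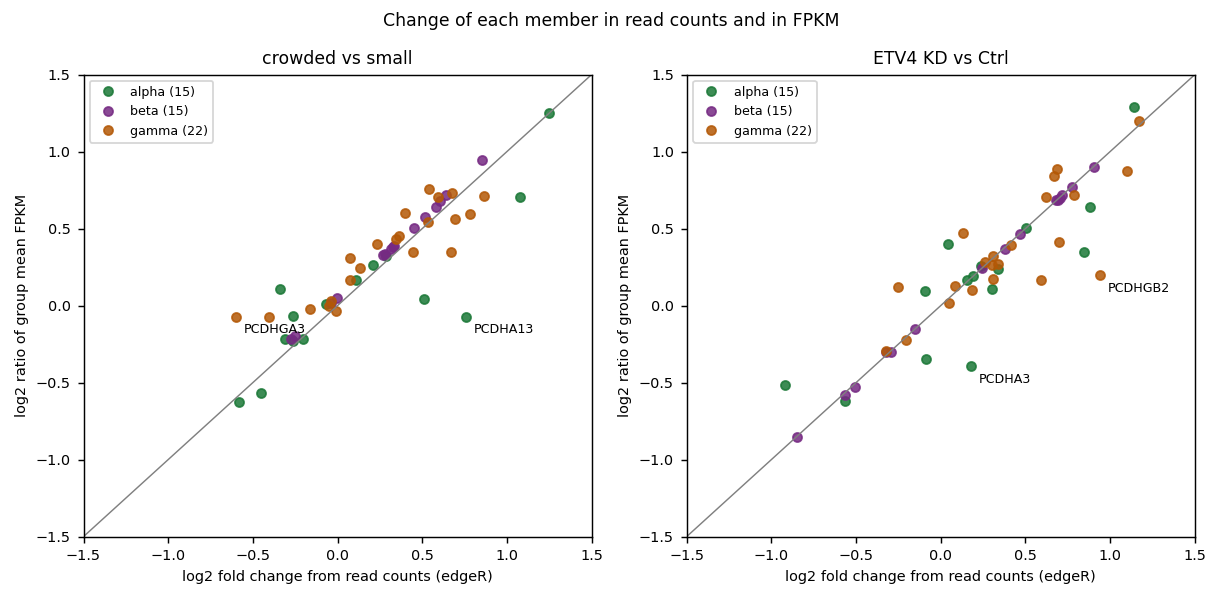
log2 ratio of the group mean FPKM against the log2 fold change from read counts for each of the 52 tested members in both comparisons, coloured by cluster; the line marks equal values. Beta genes lie close to the line, while alpha and gamma genes scatter about it, and the named genes differ by more than 0.5 between the scales.

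Small and Ctrl are the reference groups of tables that were normalized separately, so their levels are set side by side without a test. The members ranked alike in both, with a Spearman correlation of the mean FPKM of 0.886 over 15 alpha genes, 0.921 over 16 beta genes and 0.911 over 22 gamma genes, of which the genes of a cluster share libraries and, in alpha and gamma, constant exons. PCDHGA10 stood farthest apart, at 3.03 and 2.89 FPKM in small and at 0.749 and 0.457 FPKM in Ctrl, a ratio of the means of 4.91. PCDHB16 was at 1.46 and 1.51 FPKM in small and at 0.310 and 0.411 FPKM in Ctrl, a ratio of 4.12. PCDHB5 had a ratio of 2.44 and PCDHGC3 of 1.00. Neither PCDHGA10 nor PCDHB16 was called within an experiment, with log2 fold changes of -0.01 ± 0.11 and -0.04 ± 0.13 in crowding and 0.34 ± 0.32 and -0.57 ± 0.26 in the knockdown.

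**Figure D5:**
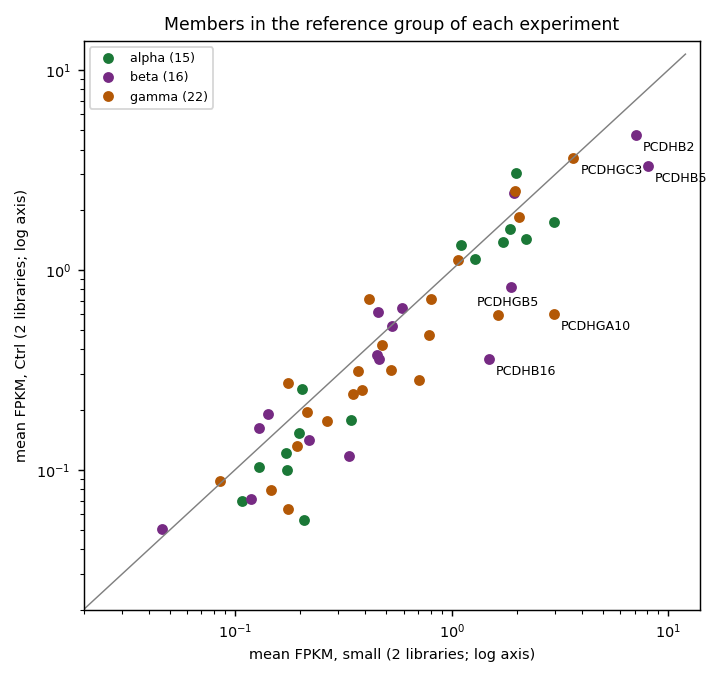
Mean FPKM of each member in the 2 Ctrl libraries against that in the 2 small libraries (log axes), coloured by cluster; the line marks equal values. PCDHGA10 and PCDHB16 lie far below the line, and PCDHGC3 lies on it.

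Genes known to act on the locus, to bind its proteins or to belong to the wider family were read from lists. Of 20 regulators of the locus (CTCF, cohesin and its loaders, DNA methyltransferases and silencers), STAG1, a cohesin subunit, was the 1 gene called in crowding, where it fell from 6.93 and 6.78 FPKM to 4.92 and 4.88 FPKM (-0.54 ± 0.07, edgeR adjusted p = 2.4e-06). After ETV4 knockdown STAG1 rose from 3.81 and 3.90 FPKM to 5.53 and 5.72 FPKM (0.55 ± 0.09, edgeR adjusted p = 0.00583). DNMT3B, a DNA methyltransferase, fell from 354 and 359 FPKM to 212 and 192 FPKM in the knockdown (-0.82 ± 0.07, edgeR adjusted p = 0.000464) and was at 827 and 778 FPKM in small and 834 and 744 FPKM in crowded. Over all genes tested, 16.1% were called in either direction in crowding and 13.0% in the knockdown, so 1 and 2 of 20 regulators were no larger a share. The part of STAG1 or DNMT3B in the changes of the members was not tested.

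Of 14 cytoplasmic partners, such as the kinases PTK2 and PTK2B and the WAVE complex, none was called in crowding by edgeR or DESeq2, with 6 at an unadjusted p below 0.05 by either against 47.7% of all genes tested by edgeR, and ABI1 fell after ETV4 knockdown (-0.53 ± 0.09, edgeR adjusted p = 0.00619). Of 12 nonclustered protocadherins, which lie outside the locus, PCDH7 (0.69 ± 0.14) and PCDH8 (1.60 ± 0.28) rose and PCDH19 (-0.56 ± 0.19) fell in crowding (edgeR adjusted p = 0.000897, 0.000174 and 0.0231). PCDH10 fell after ETV4 knockdown (-0.91 ± 0.17, edgeR adjusted p = 0.00848). Over all genes tested, 10.7% were called higher and 5.47% lower in crowding, and 5.88% and 7.10% in the knockdown. PCDH8 was barely expressed, at 0.0956 and 0.197 FPKM in small and 0.451 and 0.501 FPKM in crowded. PCDH19 was at 0.313 and 0.345 FPKM in small and 0.222 and 0.237 FPKM in crowded.

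Markers of other cells were read beside these values, since fewer cells of a type and less RNA per cell cannot be told apart in bulk RNA. The 6 pluripotency markers, with POU5F1 the most abundant, summed to 2265 to 2336 FPKM in small and 2399 to 2436 in crowded. They summed to 2141 to 2320 FPKM in Ctrl and 2450 to 2513 in ETV4 KD. None of the 6 was called in crowding. NANOG was lower in both comparisons (-0.46 ± 0.06 and -0.44 ± 0.10, edgeR adjusted p = 3.4e-06 and 0.0165), below the threshold on size. SOX2 was higher (0.41 ± 0.05 and 0.22 ± 0.07, edgeR adjusted p = 6.7e-06 and 0.0688), also below that threshold. The 6 neuronal markers, all listed, summed to 12.4 to 12.8 FPKM in small, 10.3 to 10.6 in crowded, 14.6 to 14.9 in Ctrl and 9.42 to 9.81 in ETV4 KD, and DCX and SYT1 fell in the knockdown. Most of this sum was SYT1 and RBFOX3, with means of 7.37 and 4.30 FPKM in small. In crowding these 2 were lower (-0.42 ± 0.07 and -0.27 ± 0.10, edgeR adjusted p = 6.2e-05 and 0.0344). DCX was higher there (0.39 ± 0.14, edgeR adjusted p = 0.0272), and all 3 were below the threshold on size. Of the other lists, SOX1 rose and LHX2 and THY1 fell in crowding, and LIN28A and COL1A1 rose and TDGF1 and THY1 fell in the knockdown. The neuroectoderm markers summed to at most 0.146 FPKM with 3 of 4 listed in crowding and 2 of 4 in the knockdown table, and the mesendoderm markers to at most 1.01 FPKM with 3 of 4 listed. The fibroblast list, with 3 and 4 of 6 genes listed, was mostly THY1, which hESCs also express, and summed to 114 to 116 FPKM in small, 82.8 to 83.7 in crowded, 152 to 155 in Ctrl and 116 to 126 in ETV4 KD. The part of other cells in the changes of the members was not tested.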

How the data were processed

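H9 poly-A RNA was read from 8 libraries, 2 in each of 4 groups, from stranded paired libraries. The submitters' processing notes name Trimmomatic, HISAT2 2.1.0 and StringTie 2.1.3b on GRCh37. Use of strand in counting is not given in the sources used here. The authors deposited raw read counts for each gene in 1 table per experiment (19472 and 19551 genes, the lowest count being 1). Beside them stand the FPKM values of the authors, scaled to transcript length and mapped reads. Fold changes, log CPM and p-values of the authors' own comparisons stand in the tables too and were left aside, as were 16 columns with TPM and normalized values of the same libraries.

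The members and the gene lists were chosen with earlier results of these data known. Groups came from the sample labels, and each table was tested on its own with edgeR 4.0.16 in R 4.3.3 (filterByExpr, TMM normalization, robust quasi-likelihood test, Benjamini-Hochberg adjustment over 17672 genes in crowding and 17879 in the knockdown). Calls needed an adjusted p under 0.05 and a log2 fold change beyond 0.5 either way. A standard error is the size of the log2 fold change over the root of its F statistic. An exact permutation test of 2 libraries against 2 cannot go below p = 0.333, so the p-values rest on dispersions shared across genes. Totals of 50359703 to 62410168 reads per library leave most members at low counts.

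The genes named were the members called in either comparison, the 3 of each cluster with the highest mean FPKM in either table, and the C-type genes. PCDHA4, PCDHB1, PCDHB16 and the genes that bound the stretches of the beta cluster were named after their values were seen, and a few others for their promoters or annotated ends.

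Alternatives were DESeq2 1.42.0 (size factors, Wald test), no filter on low counts or at least 10 counts in every library, limma 3.58.1 on log2(FPKM + 0.5) with a mean of at least 0.5 FPKM, pseudocounts of 0.1 and 1, no minimum FPKM, the replicate number as a block, a log2 threshold of 1, and each library left out in turn. Tested on simulated data in which 200 genes had a log2 fold change of 1, the edgeR step found 91.5% of them among 17648 genes (crowding design) and 86% among 17858 genes (knockdown design), and 3.68% and 7.53% of its calls were genes that had not been changed. The 200 genes were drawn only from genes with a minimum mean count. Called members such as PCDHA3 (mean 35.75 reads in crowding) and PCDHGA2 (37.25 in the knockdown) did not reach it. The shares found therefore do not describe members with so few reads. Promoters are RefSeq's on GRCh38.p14, and figures were drawn with matplotlib 3.10.9.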

Additional observations from a re-analysis of the deposited data

How the results depend on the processing

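Fewer members were called on the FPKM scale. limma on log2(FPKM + 0.5), log2(FPKM + 0.1) and log2(FPKM + 1), and on log2(FPKM + 0.5) without a minimum, called 1, 2, 0 and 1 members in the crowding comparison and 2, 3, 2 and 2 in the knockdown. Where limma called 0, 7 of 29 members had an unadjusted p below 0.05, edgeR called 9 and DESeq2 called 6. Over all genes, log2(FPKM + 0.5), log2(FPKM + 1) and log2(FPKM + 0.5) without a minimum called 1717, 1256 and 1839 in the crowding comparison, and the last 2 settings called 1325 and 1502 in the knockdown, against 2851 and 2321. A log2 threshold of 1 left 1135 genes and 2 members in crowding and 761 genes and 2 members in the knockdown. The same 3 limma settings gave medians of 0.19, 0.13 and 0.18 for beta and of 0.24, 0.17 and 0.20 for gamma genes in crowding, and of 0.14, 0.10 and 0.11 for beta and 0.11, 0.094 and 0.15 for gamma genes in the knockdown, where log2(FPKM + 0.1) gave 0.21 for gamma genes. Settings with a minimum of 0.5 FPKM covered 29 members in crowding, while edgeR tested 52. PCDHA1, PCDHA3, PCDHB11 and PCDHGA5, which edgeR called there, had lower means. In the knockdown, 30 of 53 members were below 0.5 FPKM. Counts and medians of these settings are therefore over fewer members than those of edgeR. The cause of the shifts between settings was not tested, beyond a larger pseudocount shrinking the changes of low genes.

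With 1 library left out, whose group's lone library is assumed to vary like the others, the members called ranged from 3 to 15 in crowding and from 4 to 8 in the knockdown. The medians ranged from -0.042 to 0.24 for alpha and from 0.17 to 0.41 for gamma genes in crowding, and from 0.33 to 0.50 for gamma genes in the knockdown. The log2 fold changes that changed sign were all of members that edgeR did not call in the same comparison. In crowding they ranged from -0.18 to 0.039 for PCDHA10, -0.14 to 0.12 for PCDHGA10, -0.36 to 0.34 for PCDHGA2, -0.018 to 0.18 for PCDHGB4, -0.26 to 0.14 for PCDHGC3 and -0.28 to 1.30 for PCDHGC5. In the knockdown they ranged from -0.33 to 0.15 for PCDHA1, -0.25 to 0.057 for PCDHA10, -0.49 to 1.42 for PCDHA3, -0.35 to 0.35 for PCDHAC1, -0.082 to 0.96 for PCDHGA10, -0.31 to 0.34 for PCDHGB1, -0.065 to 0.31 for PCDHGB3, -0.048 to 0.23 for PCDHGB7 and -1.16 to 0.29 for PCDHGC5. limma also turned the sign of PCDHA10 (0.00012 with a pseudocount of 1) and PCDHGA2 (0.0080 without a minimum) in crowding and, without a minimum, of PCDHA1 (0.016), PCDHA3 (-0.052) and PCDHGC5 (0.014) in the knockdown.

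The labels do not say whether same-numbered libraries are pairs, and their deviations were hardly correlated (-0.041 and 0.086), which does not settle it. With the replicate block, 9 members were called in crowding and 10 in the knockdown, among 2874 and 2901 genes, and the gamma median of the knockdown was 0.37. DESeq2 and the filters on counts kept the member counts within 1.5 times. With read counts in place of FPKM the log2 ratio of the summed beta level in the knockdown was -0.028 against 0.012. Low reads limit the members, and PCDHB1, at 2 to 12 reads per library, was not tested.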
